A study of Mus musculus with 22 samples.

Results

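The genes described here are 10 Toll-like receptor genes and partners of mouse, Tlr1, Tlr2, Tlr3, Tlr4, Tlr6, Tlr7, Tlr9, Tlr13, Cd14 and Myd88. They were chosen by name, with earlier results of these data known, and all 10 were found among the 21995 genes of the deposited tables. Their shares of calls beside those of all genes are therefore descriptive. Their RNA was compared in whole spinal cord between old and young mice and, separately, between SOD1-G93A mice, a model of amyotrophic lateral sclerosis (ALS), and wild-type controls. In old mice, Tlr1, Tlr2, Tlr4, Tlr7, Tlr13 and Cd14 rose past the thresholds of the study. In SOD1-G93A mice those 6 genes and Tlr6 and Tlr9 did. Tlr3 and Myd88 moved least of the genes tested in both comparisons.

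The study compared transcriptional changes of the spinal cord in normal aging and in ALS. All mice were labelled C57BL/6, and 1 RNA-seq library per mouse was analysed. The aging experiment held 8 young wild-type mice of 3 to 4 months and 8 old wild-type mice of 18 to 24 months, all male, with libraries from the Roche KAPA HyperPrep kit. The ALS experiment held 3 symptomatic G93a mice and 3 wild-type controls of 5 to 6 months, with libraries from the Illumina TruSeq kit. The G93a line overexpresses a mutant human SOD1 transgene at high copy number throughout the body, so it models mutant SOD1 toxicity rather than ALS in general. Both ALS groups held females and males, and the labels do not give the sex of each library, so sex was not modelled. Tlr7 and Tlr13 lie on the X chromosome. The kit and the experiment coincide, and each comparison was made within 1 kit.

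Toll-like receptors are membrane proteins that recognise conserved molecules of microbes and of damaged cells. Tlr1, Tlr2, Tlr4 and Tlr6 sense bacterial lipids and lipoproteins at the cell surface, whereas Tlr3, Tlr7, Tlr9 and Tlr13 sense nucleic acids inside endosomes. Most of them signal through the adaptor Myd88 to NF-kB and interferon regulatory factors, and in the central nervous system they are best known from microglia, the resident macrophages.

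On GRCm38, GENCODE M21 places the surface receptors Tlr1 (ENSMUSG00000044827) at chr5:64924679-64933563, Tlr6 (ENSMUSG00000051498) at chr5:64952031-64960097, Tlr2 (ENSMUSG00000027995) at chr3:83836272-83841767 and Tlr4 (ENSMUSG00000039005) at chr4:66827584-66930284. The endosomal receptors are Tlr3 (ENSMUSG00000031639) at chr8:45395665-45411080, Tlr7 (ENSMUSG00000044583) at chrX:167304929-167330558, Tlr9 (ENSMUSG00000045322) at chr9:106222598-106226883 and Tlr13 (ENSMUSG00000033777) at chrX:106143204-106160493, and the adaptor is Myd88 (ENSMUSG00000032508) at chr9:119335934-119341411. Values cover all annotated exons of a gene.

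Because the tested members of the group all rose, though Tlr3 and Myd88 little, their promoters were read from the RefSeq tables of the GRCm38.p6 build. These hold 7 of the 10 genes, and Tlr4, Tlr7 and Cd14 are named only. Both strands of the 250 bases before each start site were searched for 3 motifs. They were an NF-kB motif (3 G, any 5 bases, 2 C), found in 45.8% of 32851 promoters of the same length, the GAGGAA motif of the myeloid factor PU.1, found in 23.3%, and the interferon-response motif or ISRE (GAAA, any 2 bases, GAAA), found in 2.98%. The promoters below lie at chr5:64933564-64933808 on the minus strand for Tlr1, chr3:83841768-83841858 on the minus strand for Tlr2, chr9:106222348-106222597 on the plus strand for Tlr9, chrX:106143025-106143203 on the plus strand for Tlr13 and chr9:119340042-119340268 on the minus strand for Myd88. They are shown for the stretch outside annotated exons, 5′ to 3′, and capitals mark a match. All 7 genes held a match in at least 1 window, and those shown are examples.
Tlr1: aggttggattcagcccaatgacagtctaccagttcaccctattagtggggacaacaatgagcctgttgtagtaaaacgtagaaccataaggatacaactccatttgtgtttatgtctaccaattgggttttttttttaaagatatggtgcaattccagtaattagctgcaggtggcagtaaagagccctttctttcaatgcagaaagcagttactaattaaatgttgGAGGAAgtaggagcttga
Tlr2: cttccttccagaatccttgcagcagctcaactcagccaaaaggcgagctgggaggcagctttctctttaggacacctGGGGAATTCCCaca
Tlr9: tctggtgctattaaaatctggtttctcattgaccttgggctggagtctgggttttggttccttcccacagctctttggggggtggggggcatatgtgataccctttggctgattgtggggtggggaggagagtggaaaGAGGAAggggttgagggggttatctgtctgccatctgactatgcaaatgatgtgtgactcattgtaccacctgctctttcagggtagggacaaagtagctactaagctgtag
Tlr13: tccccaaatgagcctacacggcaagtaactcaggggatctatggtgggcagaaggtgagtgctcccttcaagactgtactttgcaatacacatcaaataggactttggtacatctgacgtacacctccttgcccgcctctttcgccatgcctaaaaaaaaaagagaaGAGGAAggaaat
Myd88: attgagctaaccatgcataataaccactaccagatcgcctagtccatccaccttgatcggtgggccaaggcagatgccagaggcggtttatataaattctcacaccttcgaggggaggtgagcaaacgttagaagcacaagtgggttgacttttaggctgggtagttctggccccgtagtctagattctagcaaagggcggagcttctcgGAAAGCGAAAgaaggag
Tlr1, Tlr9 and Tlr13 each held 1 PU.1 match, which began 23, 112 and 83 bases before the start site. Tlr2 held 2 overlapping NF-kB matches, of which the one nearer the start site fits the motif on both strands, and Myd88 held 1 ISRE match. The window before another start site of Tlr1 held no match. Tlr3 also held NF-kB matches, and Tlr6 held NF-kB and ISRE matches. A match of this kind describes the letters only.

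The libraries held 5078092 to 9358055 counts in young mice, 5664869 to 9145600 in old mice, 10693060 to 13219797 in controls and 9675610 to 11872431 in SOD1-G93A mice. Neuron, astrocyte and oligodendrocyte markers were abundant in every library, which fits the label of spinal cord. The summed level of 7 microglia and macrophage markers (Aif1, Itgam, Csf1r, Spi1, Ptprc, Laptm5 and Cx3cr1) was 193 ± 8.09 CPM (SD, n = 8) in young, 375 ± 50.1 CPM (SD, n = 8) in old, 199 ± 21.6 CPM (SD, n = 3) in control and 898 ± 213 CPM (SD, n = 3) in SOD1-G93A mice, where CPM is counts per 1000000, scaled by TMM library sizes. All 7 rose in both comparisons. Astrocyte marker sums were 2738 ± 199 CPM in young and 3863 ± 424 CPM in old mice (SD, n = 8). Most of that difference lay in Gfap, at 1843 CPM in young and 2977 CPM in old mice. Gfap, Aldh1l1 and Slc1a3 rose by 0.69, 0.22 and 0.17 on the log2 scale, and Aqp4, at -0.08, did not pass. Neuron sums were 4785 ± 209 CPM in young and 4297 ± 540 CPM in old mice (SD, n = 8). Astrocyte sums were also higher in SOD1-G93A mice, at 11344 ± 3104 CPM beside 2620 ± 367 CPM, and neuron sums lower, at 2772 ± 856 beside 5647 ± 145 CPM (SD, n = 3). Sums for border macrophages, monocytes, neutrophils, T cells and B cells were at most 7.03 CPM in any library. The T cell sum was nevertheless 0.399 ± 0.186 CPM in young and 1.54 ± 0.669 CPM in old mice (SD, n = 8), and the border macrophage sum was 2.71 ± 0.85 CPM in control and 5.82 ± 1.37 CPM in SOD1-G93A mice (SD, n = 3). The part of any of these lists in the results below was not tested. In bulk tissue, fewer cells of a type and less RNA per cell cannot be told apart.

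Levels of different genes were compared per length of transcript, as the deposited log2(FPKM + 1). Tlr3, the receptor for double-stranded RNA, was the highest of the 10 in young mice at 2.94 ± 0.11 (SD, n = 8) and in controls at 3.25 ± 0.21 (SD, n = 3). Myd88 was next, at 2.0 ± 0.09 and 2.04 ± 0.19. Tlr6, Tlr1 and Tlr4 were the lowest in young mice, at 0.25 ± 0.20, 0.392 ± 0.115 and 0.43 ± 0.13. In these young mice 6 of the 9 neighbouring pairs in the order had overlapping ranges, among them Cd14 and Tlr2, so that only the steps from Tlr3 to Myd88, from Myd88 to Cd14 and from Tlr2 to Tlr7 exceeded the spread. The order of the genes differed in SOD1-G93A mice. Cd14 reached 4.04 ± 0.44 in SOD1-G93A mice (SD, n = 3), beside 3.89 ± 0.21 for Tlr3, and their ranges overlapped. Tlr2 followed at 3.37 ± 0.46 and Tlr7 at 3.12 ± 0.44, both above Myd88 at 2.84 ± 0.25 in all 3 libraries. In old mice the ranges of all 9 neighbouring pairs overlapped.

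**Figure D1:**
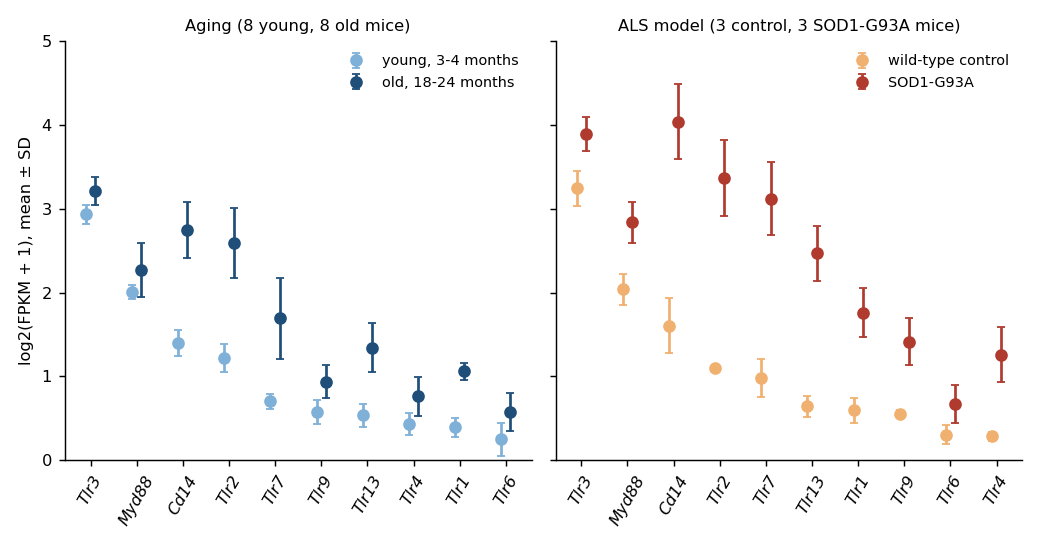
Levels per transcript length of the 10 genes, as mean log2(FPKM + 1) with SD bars, in the aging experiment (left) and the ALS experiment (right), ordered by the level in young mice or controls. Tlr3 leads in young mice at 2.94, and Cd14 reaches 4.04 in SOD1-G93A mice.

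In old mice, 6 of the 9 genes tested were higher past both thresholds, a log2 fold change over 1 and an adjusted p under 0.05, where 2.18% of 13647 genes were. None was lower, as 0.044% of all genes were. "Rose" below means an adjusted p under 0.05 in edgeR's quasi-likelihood test with Benjamini-Hochberg adjustment over all genes, which 9 of 9 passed upward and 13.5% of all genes did, beside 12.9% that were lower. The filter on low counts asked for 1.31 CPM in at least 8 libraries. Tlr1, Tlr4, Tlr9 and Tlr13 did not reach this in every young library, and so entered the test with the help of the old group. The other 5 all rose, and 3 of them passed the fold threshold, where 12.9% and 1.33% of the genes that reached that level in every young library did. For 5 of the 9 genes tested, every old library lay above every young one, a pattern seen in 3.66% of the 13647 genes. They were Tlr1, Tlr2, Tlr7, Tlr13 and Cd14. Since Tlr1 and Tlr13 had entered the test with the help of the old group, only Tlr2, Tlr7 and Cd14 show the pattern without that help. Tlr6 had too few counts for the test.

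Among receptors of the cell surface, Tlr2, which pairs with Tlr1 or Tlr6 to bind lipoproteins, ranged from 2.85 to 5.43 CPM in young mice (median 4.34) and from 8.33 to 21.2 CPM in old mice (median 18.4). The groups did not overlap, and 7 of the 8 old libraries lay at 12.1 CPM or above. Its log2 fold change was 1.95 ± 0.17 (SE) with an adjusted p of 8.67e-09 by edgeR. Cd14, the anchored co-receptor that hands lipopolysaccharide to Tlr4, went from 1.98 to 3.19 CPM in young mice (median 2.79) and from 6.32 to 12.3 CPM in old mice (median 10.1). It rose by 1.83 ± 0.15 on the log2 scale (SE, adjusted p = 5.28e-09, edgeR), with no overlap. Tlr1 was low in young mice, at 0.582 to 1.17 CPM (median 0.888), and at 2.31 to 3.89 CPM in old mice (median 3.03). It rose by 1.80 ± 0.20 (SE, adjusted p = 3.05e-07, edgeR). Every old library exceeded the highest young one. Of the 50-base words in Tlr1 exons 15.4% also occur elsewhere, mostly in Tlr6, and 12.3% of those in Tlr6, so that reads could be divided between both genes and their values are uncertain.

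Tlr4, the lipopolysaccharide receptor, was at 0.582 to 1.59 CPM in young mice (median 1.03) and at 1.07 to 3.29 CPM in old mice (median 2.32). One old library overlapped the young range, and the log2 fold change was 1.10 ± 0.25 (SE, adjusted p = 0.0022, edgeR). Without the old library d149026, named by its column, it was 0.98, below the fold threshold, with 5 genes then past both. Tlr6 had 1 to 7 counts per library in young mice, or 0.49 ± 0.301 CPM (SD, n = 8), and 4 to 14 counts in old mice, or 1.28 ± 0.38 CPM (SD, n = 8). Old libraries lay above the highest young one in 7 of 8 cases. An exact permutation test over the 12870 arrangements of the 16 libraries gave a two-sided p of 0.000622, where 0.000155 was the smallest possible.

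The receptors of endosomes did not move alike. Tlr7, which senses single-stranded RNA, was at 2.10 to 2.85 CPM in young mice (median 2.33) and at 4.94 to 11.2 CPM in old mice (median 7.78). Tlr13, which senses bacterial ribosomal RNA, was at 1.10 to 2.85 CPM (median 2.08) and at 3.08 to 9.11 CPM (median 7.19). Neither overlapped between groups, and the log2 fold changes were 1.65 ± 0.16 for Tlr7 (SE, adjusted p = 6.72e-08, edgeR) and 1.79 ± 0.21 for Tlr13 (SE, adjusted p = 1.11e-06, edgeR). Tlr9, which senses unmethylated CpG DNA, was at 1.04 to 2.83 CPM in young mice (median 1.76) and at 2.01 to 4.46 CPM in old mice (median 3.56). Its ranges overlapped, although 6 of the 8 old libraries were above all young ones. It rose by 0.89 ± 0.20 (SE, adjusted p = 0.0021, edgeR), under the fold threshold, and by 1.02 without the young library d149017. Tlr3 was at 25.4 to 31.5 CPM in young mice (median 27.4) and at 28.6 to 39.3 CPM in old mice (median 32.6), and rose by 0.24 ± 0.07 (SE, adjusted p = 0.0178, edgeR). Its exons overlap an antisense transcript, Gm45542, and since use of read strand in the counting is not given in the sources used here, reads of both cannot be told apart.

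Myd88, the shared adaptor, was at 5.68 to 6.78 CPM in young mice (median 6.38) and at 4.16 to 10.1 CPM in old mice (median 8.40). The 7 old libraries other than d149034 were above every young library, and that library, at 4.16 CPM, was below them all. The log2 fold change was 0.35 ± 0.13 (SE, adjusted p = 0.0476, edgeR), and 0.44 without d149034. In 15 of the 16 fits that left out 1 library, and in DESeq2 at 0.0536, the adjusted p was 0.05 or more. Exons of Myd88 overlap Acaa1a on the opposite strand, with the same limit on strand.

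**Figure D2:**
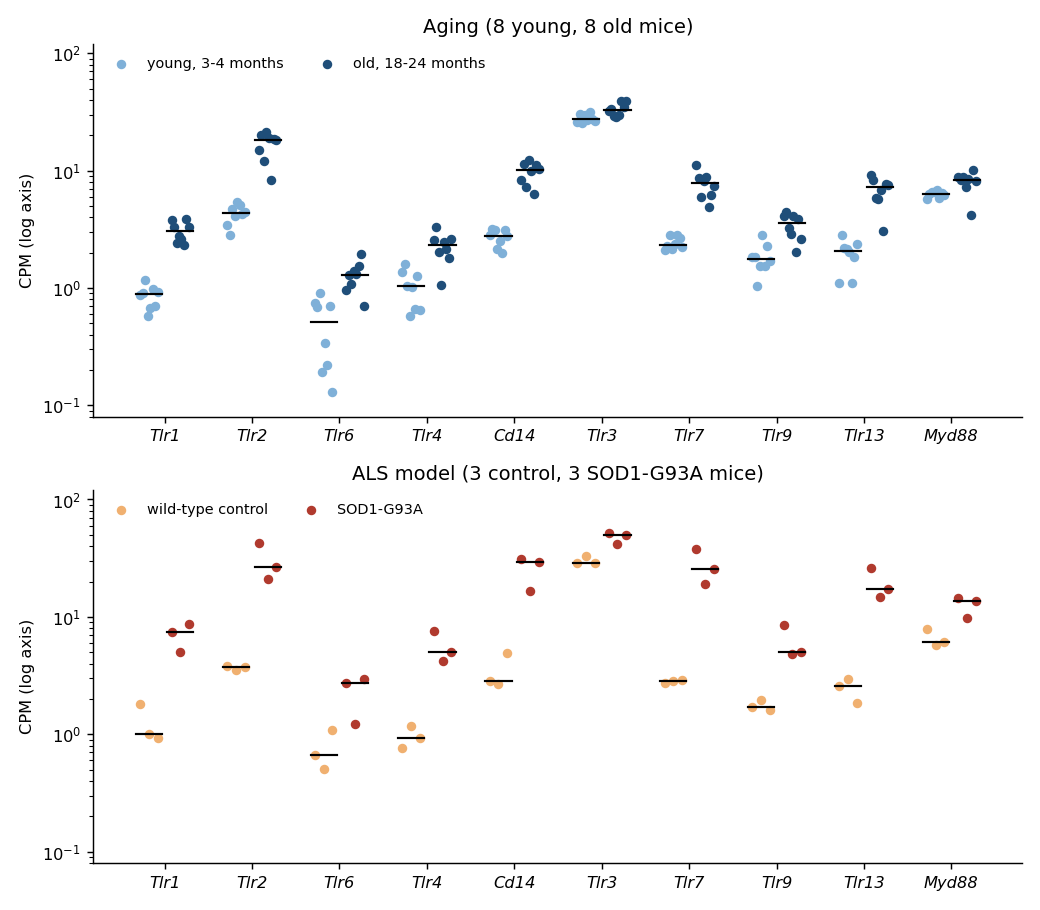
CPM of each gene in each library on a log axis, in the aging experiment (top) and the ALS experiment (bottom), with a black line at the group median. Old and young libraries separate for Tlr1, Tlr2, Cd14, Tlr7 and Tlr13, and all 10 genes separate in the ALS experiment.

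In SOD1-G93A mice, 8 of the 10 genes were higher past both thresholds, where 8.5% of 14386 genes were and 1.2% were lower, and all 10 had an adjusted p under 0.05 upward, where 18.4% of genes did and 15.5% were lower. Tlr4 and Tlr6 did not reach the 0.877 CPM of the filter in every control and entered the test through the SOD1-G93A group. The other 8 all rose, and 6 of them passed the fold threshold, where 16.7% and 6.32% of the genes that reached that level in every control did. Every gene was higher in each SOD1-G93A library than in any control. With 3 mice a group this is common, and 25.7% of all genes did so.

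Tlr7 moved most. Its controls were at 2.75, 2.86 and 2.92 CPM and its SOD1-G93A libraries at 19.2, 25.8 and 37.9 CPM. The lowest of these stood far above the highest control, and the log2 fold change was 3.28 ± 0.27 (SE, adjusted p = 0.000152, edgeR). Tlr2 had 3.54, 3.77 and 3.80 CPM in controls and 20.9, 26.8 and 43.0 CPM in SOD1-G93A mice, a rise of 3.03 ± 0.27 (SE, adjusted p = 0.000217, edgeR). Tlr13 had 1.84, 2.56 and 2.95 CPM in controls and 14.9, 17.4 and 26.3 CPM in SOD1-G93A mice, a rise of 3.00 ± 0.27 (SE, adjusted p = 0.00022, edgeR). Control values were tight for Tlr7 and Tlr2, and the SOD1-G93A values were spread more widely.

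Cd14 had 2.69, 2.85 and 4.92 CPM in controls and 16.7, 29.1 and 30.9 CPM in SOD1-G93A mice, a log2 fold change of 2.86 ± 0.30 (SE, adjusted p = 0.00035, edgeR). Tlr4, to which Cd14 hands its ligand, had 0.759, 0.922 and 1.18 CPM in controls and 4.23, 5.01 and 7.63 CPM in SOD1-G93A mice, a log2 fold change of 2.55 ± 0.33 (SE, adjusted p = 0.00103, edgeR). Both separated the groups. Tlr1 had 0.922, 1.01 and 1.80 CPM in controls and 5.04, 7.46 and 8.77 CPM in SOD1-G93A mice, a rise of 2.52 ± 0.34 (SE, adjusted p = 0.00112, edgeR). Tlr6, its neighbour on chromosome 5, had 0.505, 0.664 and 1.08 CPM in controls and 1.21, 2.71 and 2.95 CPM in SOD1-G93A mice. The groups lay close, and the log2 fold change was 1.60 ± 0.45 (SE, adjusted p = 0.0249, edgeR). That call was lost in 4 of the 6 fits that left out 1 library (largest adjusted p = 0.109, without d4443, edgeR).

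Tlr9 had 1.61, 1.71 and 1.94 CPM in controls and 4.83, 5.01 and 8.56 CPM in SOD1-G93A mice, and rose by 1.81 ± 0.30 (SE, adjusted p = 0.00315, edgeR). Tlr3 had 28.7, 29.0 and 33.3 CPM in controls and 42.0, 50.2 and 52.2 CPM in SOD1-G93A mice, a rise of 0.67 ± 0.11 (SE, adjusted p = 0.00352, edgeR). Myd88 had 5.72, 6.15 and 7.88 CPM in controls and 9.87, 13.7 and 14.4 CPM in SOD1-G93A mice, a rise of 0.95 ± 0.20 (SE, adjusted p = 0.00849, edgeR). Tlr3 and Myd88 stayed under the fold threshold, although Myd88 passed it without the control d4438 or the SOD1-G93A library d4437.

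**Figure D3:**
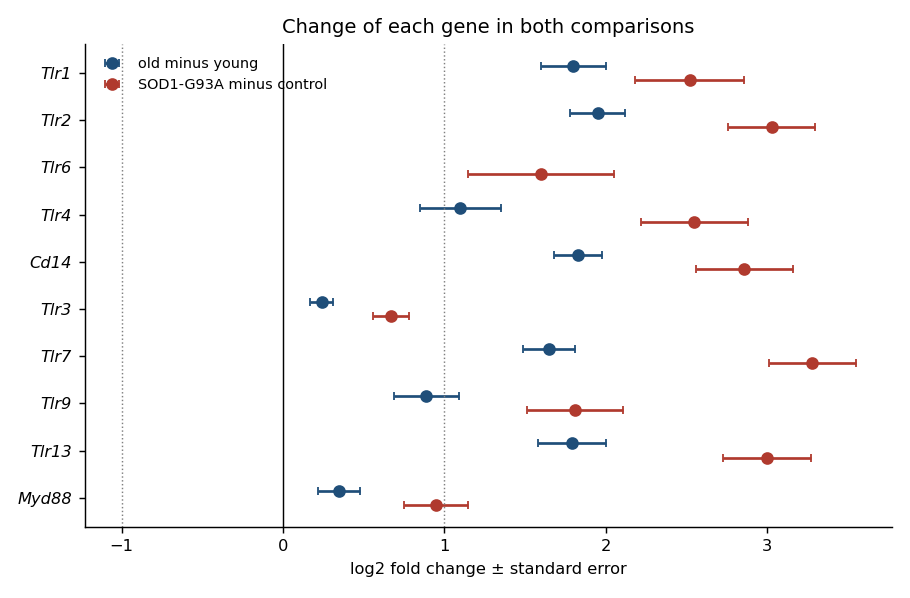
Log2 fold change with standard error of each gene in old against young mice (blue) and in SOD1-G93A against control mice (red), with dotted lines at the fold threshold of 1 in either direction. Tlr6 was not tested in aging, and Tlr3 and Myd88 lie nearest to 0.

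The 2 comparisons share no libraries, and their difference was tested as an interaction in 1 edgeR fit of all 22 libraries, in which kit and experiment coincide. For 6 of the 10 genes the rise in the ALS model exceeded that in aging at an adjusted p under 0.05. Of 14502 genes, 25.8% differed in either direction and 11.6% in the positive one. The difference in log2 fold change was 1.60 ± 0.30 for Tlr7 (SE, adjusted p = 0.000354, edgeR) and 1.41 ± 0.44 for Tlr4 (SE, adjusted p = 0.0181, edgeR). It was also past the threshold for Tlr13, Tlr2, Cd14 and Tlr3, at 1.17, 1.05, 1.0 and 0.40. For Tlr9, Tlr1, Myd88 and Tlr6 it was 0.88, 0.68, 0.57 and 0.22 and did not pass. Tlr7 was the gene that passed in all 6 fits without 1 ALS library, with a largest adjusted p of 0.00232 (edgeR). Without the SOD1-G93A library d4435, which had the highest level of 8 of the 10 genes, it was the only one.

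Because microglia and macrophage markers moved with the receptors, each gene was also tested against the summed counts of the 7 markers, in place of the library size. The median of all genes then shifted to -0.946 in aging and -2.12 in ALS, and 95.1% and 94.1% of genes were lower, so that a decrease on this scale is the usual result. An increase was found for 1.3% of genes in aging and 1.58% in ALS, but these shares cover genes of every cell type of the cord, most of them not microglial. Of the 7 markers themselves 4 were higher on this scale in aging, Aif1, Ptprc, Laptm5 and Spi1 at 0.59, 0.59, 0.38 and 0.33. Csf1r was lower at -0.27, and Itgam at 0.04 and Cx3cr1 at -0.05 did not pass. Csf1r made up the largest part of the sum, 87 of 193 CPM in young mice, so that the scale follows it most. In ALS 2 were, Ptprc at 0.68 and Laptm5 at 0.62.

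In old mice 5 of the 9 tested genes were higher per marker count. This fit kept the genes of the first test, which Tlr1 and Tlr13 had entered with the help of the old group. Of the 5 genes that reached the level of the filter in every young library, Tlr2, Cd14 and Tlr7 were higher. Tlr2 went from 22.2 ± 4.07 to 43.6 ± 7.9 per 1000 marker counts (SD, n = 8), a log2 difference of 0.98 ± 0.14 (SE, adjusted p = 3.75e-07, edgeR). Cd14 went from 14 ± 2.42 to 25.4 ± 3.38, Tlr1 from 4.43 ± 1.03 to 8.17 ± 1.37, Tlr13 from 10.1 ± 3.03 to 17.8 ± 4.08 and Tlr7 from 12.7 ± 1.83 to 20.3 ± 4.02, with log2 differences of 0.86, 0.85, 0.83 and 0.68. Tlr4, at 0.15, and Tlr9, at -0.07, did not pass. Myd88 at -0.61 and Tlr3 at -0.69 were lower, though less than the median gene.

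In SOD1-G93A mice 4 of the 10 genes were higher per marker count. Tlr7 had the largest difference at 1.08 ± 0.31 (SE, adjusted p = 0.000598, edgeR), Tlr2 was at 0.83, Tlr13 at 0.82 and Cd14 at 0.66 (adjusted p = 0.0329, edgeR). Tlr1 at 0.37, Tlr4 at 0.36, Tlr9 at -0.37 and Tlr6 at -0.60 did not pass, and Myd88 at -1.21 and Tlr3 at -1.49 were lower. The p-values of this ALS fit are too small for 3 mice a group, down to an adjusted p of 6.13e-20 for Sarm1 (edgeR). With most genes called, the adjustment changed little, and Cd14 had an unadjusted p of 0.0313 (edgeR). The 4 calls are therefore weaker than their adjusted p-values state. Only Tlr7 and Tlr2 were called in all of the fits without 1 library. Cd14 was at 0.46 without the control d4438, at 0.52 without the control d4441 and at 0.59 without the SOD1-G93A library d4443, and Tlr13 was at 0.68 without the control d4444, none of which passed. The 8 markers of homeostatic microglia (P2ry12, P2ry13, Tmem119, Sall1, Siglech, Gpr34, Fcrls and Olfml3) did not move alike. In aging 5 rose and 3 did not pass, and in ALS 4 rose and 4 did not pass. Fcrls went from 9.1 CPM in controls to 154 CPM in SOD1-G93A mice, and Sall1 from 60 to 67 CPM. Their sum is therefore not a steady measure of such cells. Against it, 7 genes were higher in old mice, where 3.17% of all genes were higher and 82.8% lower. Among these, Tlr1, Tlr4, Tlr9 and Tlr13 had entered the test with the help of the old group. In SOD1-G93A mice 6 genes were higher, where 3.61% of all genes were higher and 87.7% lower. On that scale Tlr9 turned to 0.45 in aging and passed, and Tlr9 and Tlr6 turned to 0.44 and 0.22 in ALS and did not.

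**Figure D4:**
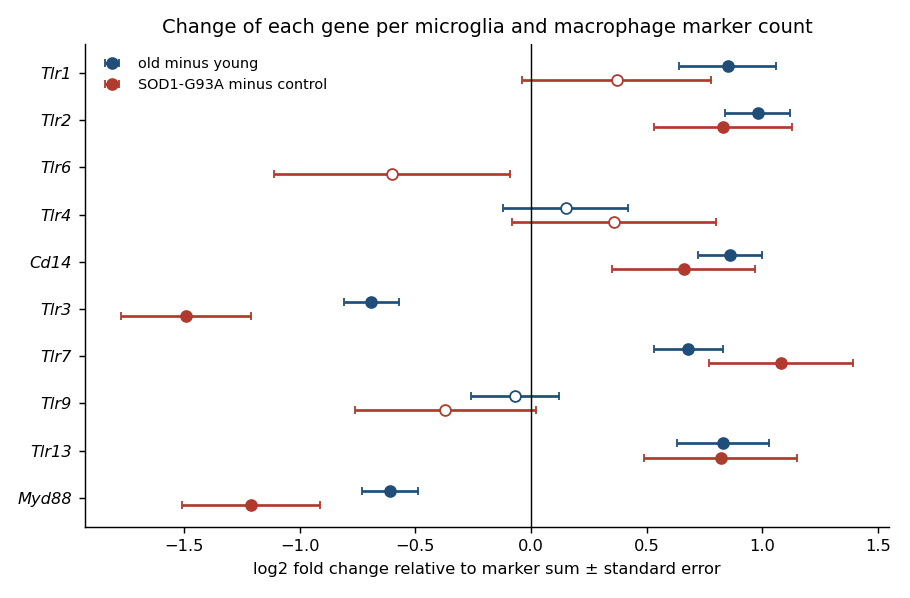
Log2 fold change with standard error of each gene when libraries are scaled to the summed counts of 7 microglia and macrophage markers. Filled points have an adjusted p under 0.05, and open points do not. Points are filled in both comparisons above 0 for Tlr2, Cd14, Tlr7 and Tlr13, and below 0 for Tlr3 and Myd88. Tlr1 and Tlr4 also lie above 0 in both, but are not filled in both. The median of all genes lies at -0.946 in aging and -2.12 in ALS.

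A single library was lowest for most of the genes in the old and in the SOD1-G93A group. The old library d149034 had the lowest level of 7 of the 10 genes and the lowest marker sum, 277 CPM where the other old libraries ranged from 340 to 424 CPM. It also had the highest level of Tlr3 and the highest neuron marker sum, 5377 CPM. Without it the count of genes past both thresholds was still 6. The SOD1-G93A library d4437 was lowest for all 10 genes and for the marker sum, at 664 CPM, and its neuron sum of 3741 CPM was the highest of its group. Without it 9 genes passed both thresholds. Whether these sums account for the order of the libraries was not tested.

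Other genes that work with these receptors were taken from lists by role. Of 67 listed pathway genes, 52 were tested in aging, of which 23 rose, 3 fell and 26 did not pass, and 11 were higher past the fold threshold. Over all genes the shares were 13.5% higher, 12.9% lower and 2.18% higher past the fold threshold. Of the 52 genes, 6 did not reach the level of the filter in every young library, and of the other 46, 19 rose, 3 fell and 7 were past the fold threshold. Of all genes that reached it in every young library, 12.9% were higher, 13.6% lower and 1.33% higher past the fold threshold. In ALS 59 were tested, of which 35 rose, 4 fell and 20 did not pass, and 27 were higher past the fold threshold, beside 18.4%, 15.5% and 8.5% of all genes that were higher, lower and higher past that threshold. Of the 59 genes, 11 did not reach the level of the filter in every control, and of the other 48, 24 rose, 4 fell and 16 were past the fold threshold. Of all genes that reached it in every control, 16.7% were higher, 16.4% lower and 6.32% higher past the fold threshold.

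Among other receptors, Cd180, a surface relative that lacks the signaling domain, rose by 1.98 ± 0.15 in old mice (SE, adjusted p = 1.32e-09, edgeR) and by 3.53 ± 0.22 in SOD1-G93A mice (SE, adjusted p = 8.14e-05, edgeR). Its partner Ly86 rose by 1.19 and 2.71. Tlr8, a sensor of RNA, had no counts in the 3 controls and 12 to 32 counts in SOD1-G93A libraries, at least 8.14-fold higher than a floor of 3 counts per library. Tlr12 rose by 1.55 ± 0.50 in SOD1-G93A mice (SE, adjusted p = 0.0392, edgeR). Tlr5, the flagellin receptor, did not pass in either comparison, at 0.24 and 0.15. Of the list of co-receptors and ligand-transfer genes, Lbp, Ly96 and Cd36 rose by 2.0, 1.94 and 3.35 in SOD1-G93A mice. Lbp also rose by 1.01 in old mice. Tlr8, Tlr12, Ly96 and Cd36 did not reach the level of the filter in every control, nor did Lbp in every young library. These genes entered the respective test with the help of the group in which they were higher.

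Unc93b1, the chaperone that carries nucleic acid receptors to endosomes, rose by 1.12 ± 0.12 in old mice (SE, adjusted p = 2.34e-07, edgeR) and by 2.30 ± 0.19 in SOD1-G93A mice (SE, adjusted p = 0.00016, edgeR). Of the 4 chaperone genes it was the only one past the fold threshold, and Hsp90b1 fell by 0.38 in old mice. Endosomal proteases that cleave these receptors rose as well. Ctss had log2 fold changes of 1.70 and 2.84, Ctsl 0.68 and 2.18 and Ctsb 0.67 and 1.94. Ctsk was at -0.30 in old mice, which did not pass, and fell by 1.0 in SOD1-G93A mice.

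Of 16 proximal kinases and ubiquitin ligases, 2 rose, 2 fell and 12 did not pass in aging, a share near that of all genes (13.5% higher and 12.9% lower). In ALS 5 rose, 2 fell and 9 did not pass, where 18.4% of all genes were higher and 15.5% lower. Btk, a tyrosine kinase of myeloid and B cells, rose by 1.16 and 3.06. Irak4, the first kinase to join Myd88, was at 0.39 in old mice, which did not pass, and rose by 1.66 in SOD1-G93A mice, as Ikbke did by 1.42. Among adaptors Pik3ap1 rose by 1.38 and 2.90 and Ticam1, which serves Tlr3 and Tlr4, by 0.45 and 1.08. Ticam2 rose by 2.69 and Sarm1 fell by 0.63 in SOD1-G93A mice. Btk did not reach the level of the filter in every young library or in every control, and Pik3ap1 and Ticam2 did not in every control. There they entered the test with the help of the group in which they were higher.

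Of 10 transcription factors 6 rose in aging, where 13.5% of all genes did, and 9 in ALS, where 18.4% did. Irf8 rose by 1.86 and 3.38, Irf5 by 1.22 and 2.75, Fos by 0.56 and 1.58 and Nfkb2 by 0.44 and 1.51. Of 7 inhibitors tested 2 rose in aging and 1 in ALS, beside the same 13.5% and 18.4% of all genes, and Tnfaip3, an inhibitor of NF-kB signaling, rose by 0.70 and 1.42. Of 10 induced cytokines and chemokines only 2 had enough counts to test in aging and 4 in ALS. None of these reached the level of the filter in every young or control library, so that they entered the test through the group in which they were higher, and nothing about the list follows from their increase. Cxcl10 rose by 2.55 and 4.34. Ccl3 was at 0.523 CPM or less in young mice and at 1.54 to 6.67 CPM in old mice, where it rose by 5.53. In SOD1-G93A mice Ccl4 rose by 5.15, while Ccl3 was at least 62.1-fold and Ccl5 at least 10.8-fold higher than the floor of 3 counts per library.

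**Figure D5:**
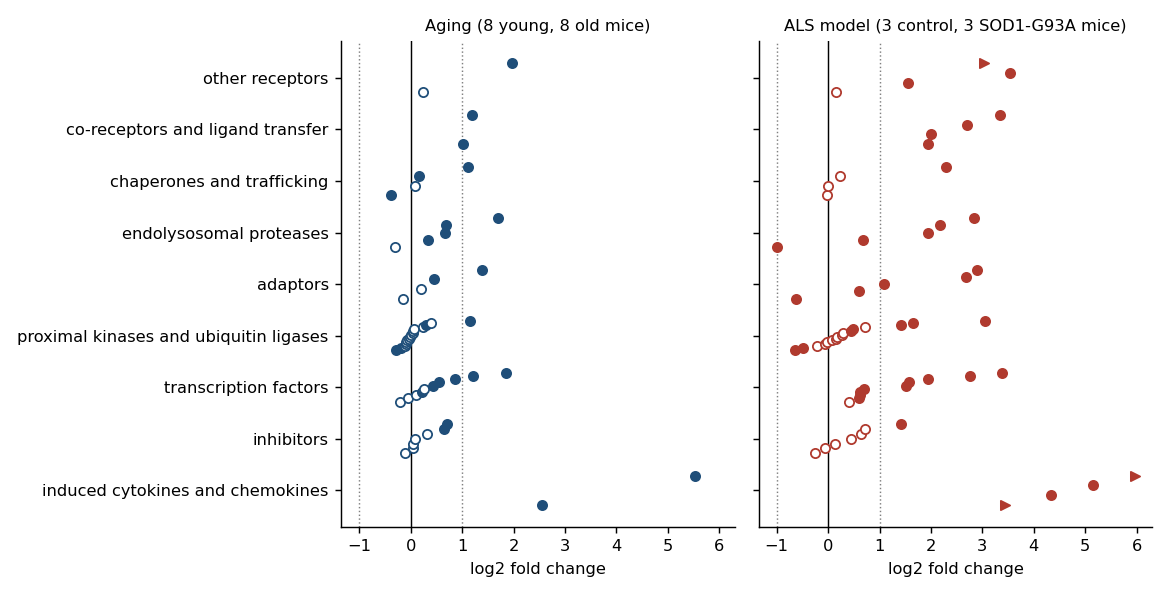
Log2 fold change of each tested pathway gene by role, in the aging experiment (left) and the ALS experiment (right). Filled points have an adjusted p under 0.05, arrowheads are lower bounds against a floor of 3 counts, and dotted lines mark the fold threshold. Most kinases and inhibitors lie within the dotted lines, and Ccl3 lies farthest to the right in both panels.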

How the data were processed

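Whole spinal cord RNA of 22 mice was analysed. The authors sequenced the libraries, aligned reads to mm10 with STAR and summarized genes with RSEM. They deposited expected counts, which held whole numbers and no normalization between libraries, and log2 values, the log2 of FPKM plus 1. The submitters' notes also name SAMtools 1.3. Columns name a group and a library but not a replicate number. All columns were used. No same-group pair of libraries agreed within sampling noise (chi-square per degree of freedom at least 2.52).

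Counts were tested in R 4.3.3 with edgeR 4.0.16, one fit per experiment, after filterByExpr (minimum count 10, minimum total 15) and TMM scaling, with p adjusted over every tested gene by the Benjamini-Hochberg procedure. Whether each tested gene reached the level of the filter in every young or control library was also counted. A call needs a log2 fold change beyond 1 and an adjusted p under 0.05. Standard errors came from the quasi-likelihood fit. The interaction used one fit of all libraries, and the marker-relative fits replaced library sizes by summed marker counts. Alternatives were DESeq2 1.42.0, RLE factors, no filter, one fit of all libraries, no fold threshold, a homeostatic marker list and each library left out. Figures used Python 3.11.15, pandas 2.3.3 and matplotlib 3.10.9. On simulated data with 200 genes altered by 1.5 on the log2 scale, 98.5% were recovered among 13562 genes for aging and 91.5% among 14277 for ALS, with none in the wrong direction, and 3.90% and 8.04% of calls fell on unchanged genes. Positions are from GENCODE M21 and promoters from RefSeq, both GRCm38. A floor of 3 counts, which covers counting error only, was used for genes at or under it in every control library.

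The 10 genes, pathway lists and marker lists were chosen with earlier results of these data known. All 10 genes are named, and of each pathway role at most 4 genes are, those past both thresholds in either comparison with the smallest adjusted p. Tlr5, Hsp90b1 and Sarm1 are not covered by it, and were picked with their values known. One marker gene of the microglia and macrophage list is not reported here and was left out of its sums and fits. Mice are the replicates, and p-values measure the spread between them. Those of the ALS fit relative to microglia and macrophage markers are too small for 3 mice a group.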

Additional observations from a re-analysis of the deposited data

Results flagged for a closer look

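For 6 genes the change in SOD1-G93A mice differed from the change in old mice in the test of the difference itself, with an adjusted p under 0.05. The difference, the log2 fold change of SOD1-G93A over control minus that of old over young, was 1.05 for Tlr2 (adjusted p = 0.0224, edgeR), 0.40 for Tlr3 (adjusted p = 0.0321, edgeR) and 1.41 for Tlr4 (adjusted p = 0.0181, edgeR). It was 1.60 for Tlr7 (adjusted p = 0.000354, edgeR), 1.17 for Tlr13 (adjusted p = 0.021, edgeR) and 1.0 for Cd14 (adjusted p = 0.0178, edgeR). Library kit, sex composition, age and depth also differ between the experiments, and their part cannot be told apart from it. In the 20 groups of 8 libraries that the aging experiment gives for the 10 genes, no library stood far from its group by Dixon's criterion, where chance would give about 1 in 20.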

How the results depend on the processing

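No direction of a called value reversed under any alternative. Counts of genes past both thresholds were 6 in aging and 8 in ALS. In aging, DESeq2, no filter and one fit of all libraries gave 7, RLE factors 6 and no fold threshold 9. In ALS, these gave 8, and no fold threshold gave 10. Leaving out 1 library gave 5 (without d149026, when Tlr4 was lost) to 7 in aging and 7 to 9 in ALS. The difference between experiments, called for 6 genes, held for 1 to 8 when 1 ALS library was left out, with 1 without d4435 and 8 without d4437, and 5 with no filter. Without d4435 Tlr2 was at 0.71, Tlr3 at 0.34, Tlr4 at 1.13, Tlr13 at 0.91 and Cd14 at 0.85, none of them passing. The count higher per marker was 4 in ALS and ranged from 3 to 4 (3 when Cd14 or Tlr13 was lost), and in aging it was 5 in all 16 fits. The cause of these losses was not tested. Leaving out a library also removes a mouse of 3. No paired analysis was possible because the table's columns carry no replicate numbers. Low counts limit Tlr6, Tlr4 and Tlr1, for which the lowest young library held 1, 3 and 3 counts.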
